A study of Mus musculus with 6 samples.

Results

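The 10 genes described here encode the NF-kB transcription factors and proteins that regulate them, mostly by holding them in check. They were taken by gene symbol from the deposited expression table, which lists 55291 genes, and all 10 were found and tested. Of these, 5 encode subunits (Nfkb1, Nfkb2, Rela, Rel and Relb), 4 encode proteins of the IkB family (Nfkbia, Nfkbib, Nfkbie and Nfkbiz) and 1, Tnfaip3, encodes the ubiquitin-editing inhibitor A20. Nfkbiz is grouped with the inhibitors below by family, not by role. Gene positions below are those of GENCODE mouse release 21 on mm10.

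NF-kB subunits pair into dimers that IkB proteins keep in the cytoplasm of a resting cell. When a Toll-like receptor or a cytokine receptor fires, the IkB kinase (IKK) marks the IkB protein for destruction and the dimer enters the nucleus. Several of the genes it then switches on encode its own inhibitors, such as IkB alpha and A20, so the pathway is a textbook feedback loop. Uptake of apoptotic cells is known to dampen inflammatory signalling in macrophages, which makes these genes of interest here.

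The libraries were made from poly(A) RNA of cultured mouse macrophages differentiated from bone marrow (BMDM), which are professional phagocytes. In 3 libraries the cells had been pretreated with apoptotic cells (AC pretreated), and in the other 3 they had not (untreated). The sources used here do not give strain, genotype or age, nor which apoptotic cells were used, at what dose and for how long. Whether the replicates are separate cultures or animals is not stated either, and the spread behind each p-value is that between libraries and may be technical.

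Levels are given in TPM, transcripts per 1000000, which sum to 1000000 in each library. They are scaled for the merged exon length of each gene, which can exceed the length of its transcripts. Levels of different genes are therefore comparable only per merged exon base. Depth recovered from the table was 21 to 25.3 M reads in AC pretreated and 19.3 to 32.6 M reads (M, 1000000) in untreated libraries. Of 10 macrophage markers, 9 were at 55 TPM or more in all 6 libraries. The exception was Lyz2, which encodes lysozyme: it was at 11162, 12451 and 9607 TPM in AC replicates 1, 2 and 3, against 83.7, 9270 and 10271 TPM in untreated replicates 1, 2 and 3. Untreated replicate 1 thus stood apart on a defining marker, while its Adgre1 (2633 TPM) and Csf1r (1288 TPM) were the highest of the 6 libraries. What sets this library apart was not tested, and results are also given without it. By contrast, 9 of 10 thymocyte and T cell markers stayed below 1 TPM in all libraries, with Cd3d and Cd8b1 at 0. The summed level of 8 neutrophil markers was 25.3 to 42.9 TPM in AC pretreated and 23.7 to 54.9 TPM in untreated libraries. That of 10 placental trophoblast markers was 2.28 to 130 TPM in AC pretreated and 0 to 30.3 TPM in untreated libraries. Tpbpa, a trophoblast marker, was 3.98 and 15.9 TPM in AC replicates 1 and 2, 1.70 and 3.68 TPM in untreated replicates 1 and 2, and 0 in replicate 3 of both groups. The part of such RNA in the values below was not tested, but differences are also given for replicates 1 and 2 alone and for replicate 3 alone. Measured on RNA of whole cultures, fewer cells expressing a gene and less RNA per cell cannot be told apart.

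AC replicate 1 stood apart by transcript length and GC content. Relative to the mean of the 6 libraries on the log2(TPM + 1) scale, the median of 4128 genes with more than 5319 exon bases was -0.38, 0.07 and 0.20 in AC replicates 1, 2 and 3, against 0.12, -0.01 and 0.00 in untreated replicates 1, 2 and 3. For 4128 genes with fewer than 2671 exon bases it was 0.06, 0.01 and -0.12 in AC replicates 1, 2 and 3, against 0.07, 0.07 and -0.03 in untreated replicates 1, 2 and 3. For 4128 genes of lowest GC content it was -0.30, 0.16 and 0.07 in AC replicates 1, 2 and 3, against 0.02, -0.02 and 0.08 in untreated replicates 1, 2 and 3. For 4128 genes of highest GC content the median in AC replicate 1 was -0.05. Long and AT-rich transcripts were thus low in AC replicate 1 over all tested genes. Results are therefore also given without AC replicate 1.

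NF-kB is known to act on feedback genes through kB sites in their upstream DNA, so that DNA is shown first. RefSeq promoter windows (GRCm38.p6, the build the submitters name as mm10) were matched for 7 of the 10 genes. The 250 bases before the RefSeq start site of each window were searched on both strands for a kB pattern of GGG, any 3 bases and TTCC. Its reverse complement is GGAA, any 3 bases and CCC. Of 32851 RefSeq windows, 4.65% held a match in those 250 bases. Among the 7 genes, 5 held a match in at least 1 window: Nfkbia, Nfkbie, Tnfaip3, Rel and Nfkb2. The share over all windows is per window, and counted so, 8 of the 10 windows of these genes held a match. Tnfaip3 and Nfkb2 had more than 1 window each, and windows of Nfkb2 overlapped. A match is a description of the letters, not of binding. The upstream 250 bases of Nfkbia, the prototype feedback gene, lie at chr12:55492648-55492897 on the minus strand, with the match in capitals:
Nfkbia: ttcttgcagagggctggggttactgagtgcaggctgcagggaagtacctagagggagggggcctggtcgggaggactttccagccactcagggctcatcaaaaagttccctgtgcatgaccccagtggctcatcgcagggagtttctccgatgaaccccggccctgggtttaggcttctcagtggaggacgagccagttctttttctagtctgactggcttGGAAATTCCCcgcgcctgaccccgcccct

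Shorter stretches are given for 4 other genes, again 5′ to 3′ on the gene's strand, with a match of each gene in capitals. The search pattern fixes most letters of a match, so their likeness is built in. Tnfaip3 and Nfkb2 held further matches that are not in capitals here. The printed stretch of Nfkb2 ends inside another of its matches. They lie at chr10:19015411-19015447 on the minus strand for Tnfaip3, chr11:23771026-23771085 on the minus strand for Rel, chr17:45555569-45555628 on the plus strand for Nfkbie and chr19:46304674-46304733 on the plus strand for Nfkb2. RefSeq and GENCODE starts differ: by the GENCODE positions given below, the stretches of Tnfaip3 and Nfkb2 lie inside the gene. The matches printed for Tnfaip3 and Rel have the same 10 letters.
Tnfaip3: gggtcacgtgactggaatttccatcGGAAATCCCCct
Rel: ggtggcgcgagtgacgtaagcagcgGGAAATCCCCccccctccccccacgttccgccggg
Nfkbie: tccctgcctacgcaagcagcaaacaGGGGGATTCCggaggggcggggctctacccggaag
Nfkb2: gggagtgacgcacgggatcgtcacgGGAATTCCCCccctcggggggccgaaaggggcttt

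The windows of Rela and Nfkbib held no match, which says only that these letters are not in those 250 bases. A looser pattern of GGG, any 5 bases and CC, which includes every match above, occurred in 45.8% of all windows over the same length and so separates little.

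The comparison between the groups asked whether the steady-state level of these transcripts differs in macrophages pretreated with apoptotic cells. None of the 10 genes passed the test. Means were lower after AC pretreatment for 9 of the 10 and higher for Tnfaip3, with a median log2 difference of -0.09 (AC pretreated minus untreated). Over all 12603 tested genes the median was -0.07 and 70.6% had a lower mean, so the members' count is near the background. With median-of-ratios scaling 6 of the 10 were lower, against 52.6% of all genes. By limma with Benjamini-Hochberg adjustment over all tested genes, 0 members had an adjusted p under 0.05, and 0 genes in all (0%). At an unadjusted p under 0.05 there were 0 members and 164 genes (1.3%). The 95% interval of the difference lay inside 1.5-fold for 6 of the 10 members, against 46.1% of all tested genes. It lay inside 2-fold for 10 of the 10, against 87.4% of all tested genes. With limma's array weights, 0 members and 276 genes (2.19%) passed.

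Without untreated replicate 1, the library low in Lyz2, 0 members and 0 genes passed, and 8 of the 10 members had a lower mean, against 62.1% of all tested genes. The differences were then -0.08 for Nfkb1, -0.05 for Nfkb2, -0.02 for Rel, 0.04 for Rela and -0.09 for Relb. Among the inhibitors they were -0.05 for Nfkbia, -0.12 for Nfkbib, -0.14 for Nfkbie, -0.01 for Nfkbiz and 0.17 for Tnfaip3. Rela thus had the opposite sign without that library, and the differences of Nfkb1, Nfkb2 and Relb were closer to 0.

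**Figure D1:**
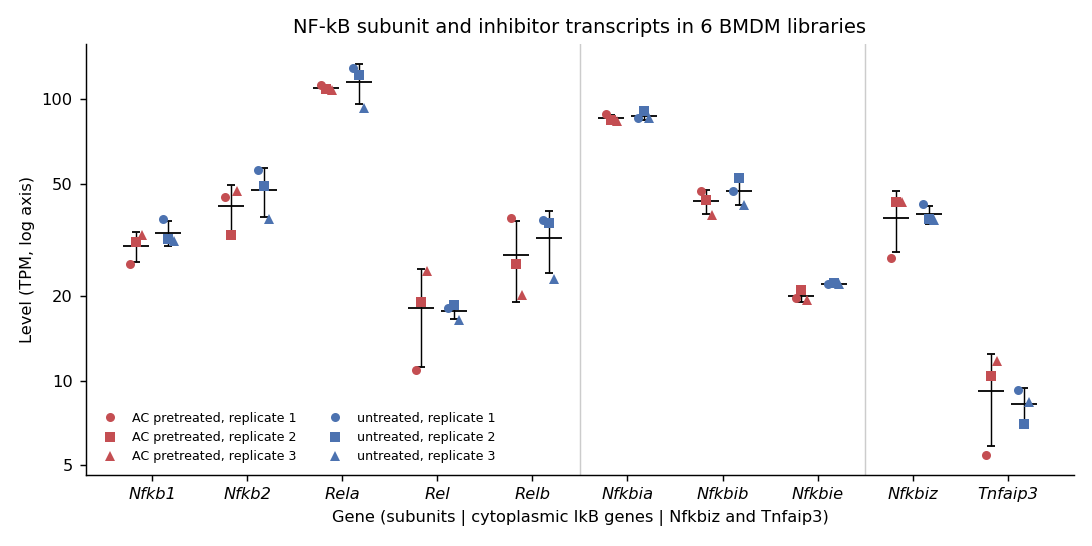
Level of each gene in each library, in TPM on a log axis, for AC pretreated (red, left of each pair) and untreated (blue) BMDM; bars are the mean and SD of 3 libraries. The groups overlap for 9 of 10 genes, the exception being Nfkbie, and AC replicate 1 is the lowest library for Nfkb1, Rel, Nfkbiz and Tnfaip3.

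In the order of their levels over the 6 libraries, Rela came first at a mean of 112 TPM, above 89.9% of tested genes. Nfkbia followed at 86.6 TPM, and Rela was above Nfkbia in 6 of 6 libraries with ranges that did not overlap. Nfkbib, at 45.3 TPM, was clear of Nfkbia in the same way. From there down to Tnfaip3 (8.70 TPM), the ranges of all neighbours in the order overlapped. Nfkbib and Nfkb2 (44.6 TPM) could not be ordered, since Nfkbib was the higher in 4 of 6 libraries, and the same held for Nfkb1 (31.8 TPM) and Relb (30.1 TPM). Within each library Tnfaip3 was below Rel in 6 of 6, at a mean log2 ratio of Rel to Tnfaip3 of 1.05 ± 0.19 (SD, n = 6). In all libraries of both groups, the canonical pair Rela and Nfkbia thus stood above the other subunits and inhibitors in TPM. This order depends on merged exon length. Nfkb1, with 12061 merged exon bases, had 2416 to 4156 reads per library, and Rela, with 3072, had 1828 to 4062.

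Among the subunits, Rela (chr19:5637483-5648130, plus strand) encodes p65, the main transactivating subunit of the canonical dimer. It stood at 112, 109 and 108 TPM in AC replicates 1, 2 and 3, against 129, 122 and 93.2 TPM in untreated replicates 1, 2 and 3. The AC libraries were close together and lay within the untreated range. The log2 difference of Rela was -0.05 ± 0.15 (SE), with a 95% interval of -0.40 to 0.30, and it turned sign with median-of-ratios scaling (0.02) and by voom on recovered reads (0.01).

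Nfkb1 (chr3:135584655-135691547, minus strand) encodes p105, which is processed to p50, the partner of p65. Its level was 26.0, 31.0 and 33.0 TPM in AC replicates 1, 2 and 3, against 37.5, 31.8 and 31.4 TPM in untreated replicates 1, 2 and 3. The lowest library was AC replicate 1 and the highest untreated replicate 1, with the other 4 within a narrow band. The difference was -0.16 ± 0.16 and was -0.06 without AC replicate 1.

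Rel (chr11:23736847-23770970, minus strand) encodes c-Rel, a lymphoid and myeloid subunit needed for some cytokine genes. It was at 10.9, 19.0 and 24.6 TPM in AC replicates 1, 2 and 3, against 18.1, 18.6 and 16.4 TPM in untreated replicates 1, 2 and 3. The AC libraries thus held both the lowest and the highest value, 2.26 times apart, around a tight untreated group. Its difference of -0.04 ± 0.27 (95% interval -0.65 to 0.58) became 0.27 without AC replicate 1 and turned sign under median-of-ratios scaling (0.03).

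Nfkb2 (chr19:46304320-46312385, plus strand) and Relb (chr7:19606217-19629438, minus strand) encode p100 and RelB, the pair of the noncanonical pathway. Nfkb2 was at 45.1, 32.8 and 47.3 TPM in AC replicates 1, 2 and 3, against 56.1, 49.0 and 37.4 TPM in untreated replicates 1, 2 and 3, a difference of -0.18 ± 0.20. The groups overlapped, with AC replicate 2 the lowest library. Of the merged exon bases of Nfkb2, 18.1% overlap exons of genes on the opposite strand (Psd and AC114539.1), and the sources used here do not say whether reads were counted by strand. Relb was at 37.8, 26.0 and 20.1 TPM in AC replicates 1, 2 and 3, against 37.3, 36.2 and 22.9 TPM in untreated replicates 1, 2 and 3. In both groups replicate 3 was the lowest library and replicate 1 the highest, so the spread within each group was larger than the gap between them. The difference of Relb was -0.21 ± 0.27 (95% interval -0.82 to 0.41), the largest in size of the 10. It was -0.44 without AC replicate 1, but 0.00 without AC replicate 3.

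The cytoplasmic inhibitors had the smallest SD over the 6 libraries among the 10, at 0.04 log2 units for Nfkbia, 0.09 for Nfkbie and 0.15 for Nfkbib. Nfkbia (chr12:55489410-55492647, minus strand) encodes IkB alpha, the fast-resynthesised inhibitor whose transcription NF-kB itself drives. It was at 88.6, 84.3 and 83.9 TPM in AC replicates 1, 2 and 3, against 85.9, 91.0 and 85.8 TPM in untreated replicates 1, 2 and 3. The highest library was 1.09 times the lowest, the smallest span among the 10 genes. Nfkbia averaged 85.6 ± 2.62 TPM in AC pretreated and 87.5 ± 2.99 TPM in untreated libraries (SD, n = 3 each), on 882 to 1587 reads per library. The log2 difference was -0.03 ± 0.12, and its 95% interval corresponds to 0.81- to 1.19-fold. The sign turned with median-of-ratios scaling (0.04).

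Nfkbib (chr7:28758251-28767512, minus strand) encodes IkB beta, an inhibitor that is resynthesised more slowly. Its level was 47.3, 44.0 and 38.9 TPM in AC replicates 1, 2 and 3, against 47.2, 52.6 and 42.1 TPM in untreated replicates 1, 2 and 3, a difference of -0.12 ± 0.15. The ranges of the groups overlapped. Exons of Ccer2 and Sirt2 on the opposite strand cover 16.4% of its exon bases.

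Nfkbie (chr17:45555703-45563169, plus strand) encodes IkB epsilon, a delayed feedback inhibitor of p65 and c-Rel dimers. It was at 19.7, 21 and 19.3 TPM in AC replicates 1, 2 and 3, against 22, 22.2 and 22.1 TPM in untreated replicates 1, 2 and 3. Every AC library lay below every untreated one, which held for 1 of the 10 members and for 3.48% of all tested genes in that direction (4.42% in either direction). The SD was 0.920 TPM in AC pretreated and 0.128 TPM in untreated libraries (n = 3 each), and the fold was 0.91. The log2 difference was -0.14 ± 0.14 (95% interval -0.45 to 0.18) with an adjusted p of 1.0 by limma, so it did not pass. It ranged from -0.17 to -0.11 on leaving out 1 library, and was -0.11 for replicates 1 and 2 and -0.19 for replicate 3. It was -0.07 with median-of-ratios scaling, -0.08 by voom and -0.07 with length and GC trends removed. With those trends removed the groups overlapped. Relative to its mean, Nfkbie then stood at -0.04, 0.06 and -0.11 in AC replicates 1, 2 and 3. Untreated replicates 1, 2 and 3 stood at -0.08, 0.02 and 0.16.

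**Figure D2:**
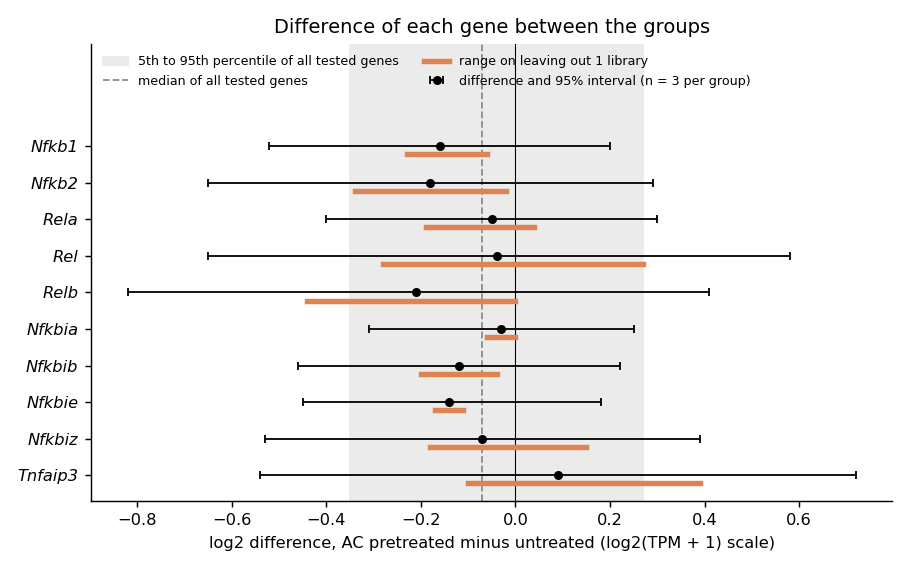
Log2 difference of each gene between AC pretreated and untreated libraries on the log2(TPM + 1) scale, with its 95% interval (n = 3 per group) in black and the range on leaving out 1 library in orange. All 10 intervals cross 0, and all 10 differences lie between the 5th (-0.35) and 95th (0.27) percentile of the differences of all tested genes, shaded in grey.

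Nfkbiz and Tnfaip3 are textbook early response genes of activated macrophages. Nfkbiz (chr16:55811375-55838899, minus strand) encodes IkB zeta, a nuclear member of the family that helps to switch on secondary genes. It was at 27.2, 43.3 and 43.1 TPM in AC replicates 1, 2 and 3, against 42.4, 37.5 and 37.2 TPM in untreated replicates 1, 2 and 3. AC replicate 1 was the lowest of the 6, while AC replicates 2 and 3 were the highest. The difference was -0.07 ± 0.20 and became 0.15 without AC replicate 1.

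Tnfaip3 (chr10:19000910-19015657, minus strand) encodes A20, which removes and edits ubiquitin chains on the adaptors upstream of IKK. The lowest of the 10 genes in level, it was at 5.43, 10.4 and 11.7 TPM in AC replicates 1, 2 and 3, against 9.28, 7.0 and 8.41 TPM in untreated replicates 1, 2 and 3. Here too AC replicate 1 was below, and AC replicates 2 and 3 above, every untreated library. The depth was 356 to 587 reads per library. The difference was 0.09 ± 0.27 (95% interval -0.54 to 0.72), 0.39 without AC replicate 1 and -0.10 without AC replicate 3.

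Across libraries the 10 genes fell into contrasting profiles rather than moving together. Rel, Nfkbiz and Tnfaip3 were each lowest in AC replicate 1 and above their own mean in AC replicates 2 and 3. Centred on the 6 libraries, Rel stood at -0.63, 0.11 and 0.47 in AC replicates 1, 2 and 3, and Tnfaip3 at -0.56, 0.27 and 0.42. The profile of Relb ran the other way, at 0.36, -0.16 and -0.52. The root-mean-square distance between centred profiles was 0.145 log2 units for Nfkbiz and Tnfaip3 and 0.159 for Rel and Tnfaip3, against 0.627 for Relb and Tnfaip3, the widest of all pairs. Nfkbiz was nearer to Nfkb1, at 0.132, than to Tnfaip3 or to Rel (0.156). The distances thus do not set Rel, Nfkbiz and Tnfaip3 apart as a group. The closest pair was Nfkbia and Nfkbie at 0.0755, both with little variation.

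Exon length and GC content were set beside these profiles. Rel and Tnfaip3 have 7466 and 7226 merged exon bases, longer than 82.9% and 81.5% of tested genes. Nfkbiz has 5018, below the bound of 5319 bases used above for long genes. In GC content Rel was above 15.6%, Tnfaip3 above 38.5% and Nfkbiz above 54.4% of tested genes. Their deviations in AC replicate 1 had the sign of the median of long transcripts in that library (-0.38). With the length and GC trends of each library removed, an alternative chosen after seeing the data, AC replicate 1 stood at -0.27 for Rel, -0.23 for Tnfaip3 and -0.27 for Nfkbiz. The SD over the 6 libraries was then 0.21 for Rel and 0.21 for Tnfaip3, against 0.36 and 0.36 as measured. It was 0.17 for Nfkb2 and 0.08 for Rela, against 0.27 and 0.16 as measured. The SD was smaller than as measured for 7 of the 10 members. It was larger for Nfkb1 (0.18 against 0.17), Nfkbia (0.06 against 0.04) and Nfkbie (0.1 against 0.09). Length and GC were removed together, so their shares were not tested. For Relb, with 3885 exon bases, the SD was 0.37, against 0.39 as measured. Its deviations in AC replicates 1, 2 and 3 were then 0.44, -0.08 and -0.57. For Nfkb1, with 12061 exon bases, AC replicate 1 stood at 0.24 with the trends removed and at -0.27 as measured.

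**Figure D3:**
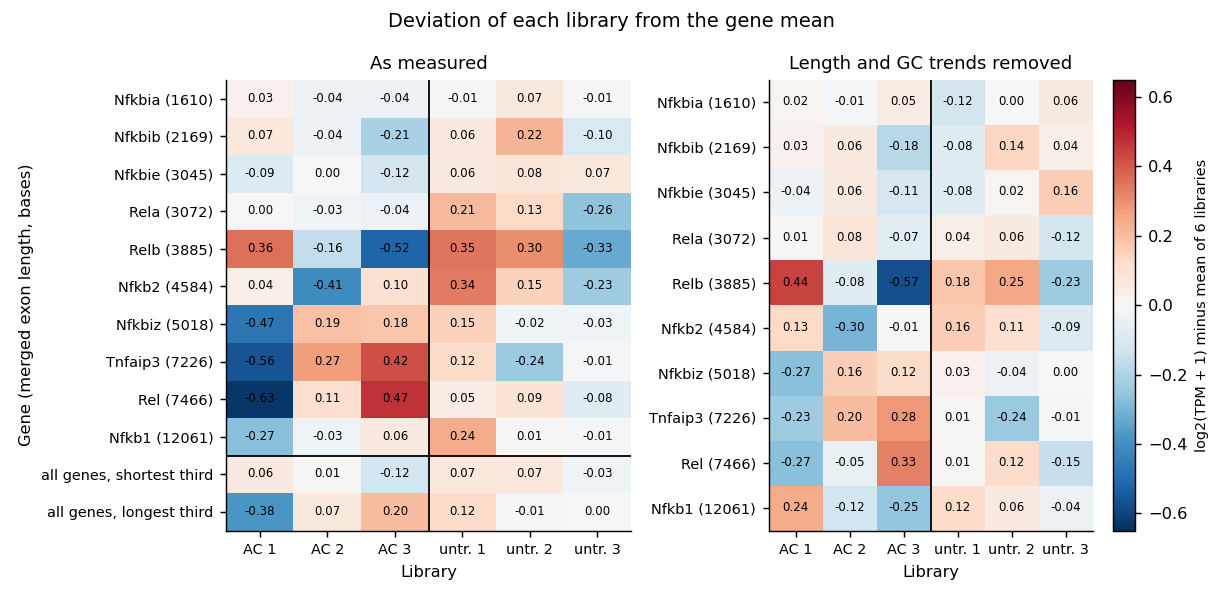
Deviation of each library from the mean of the 6 libraries in log2(TPM + 1), as measured (left panel) and after removal of each library's length and GC trends (right panel), with genes ordered by merged exon length from short to long and medians of short and long genes of the whole table in the bottom rows. As measured, Rel is at -0.63 in AC replicate 1 and at 0.47 in AC replicate 3, and Relb runs the other way in both panels.

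The spread between replicates was larger in AC pretreated than in untreated libraries for 6 of the 10 genes, against 73.3% of all tested genes. The widest gap was that of Rel, with an SD of 0.56 log2 units in AC pretreated and 0.09 in untreated libraries. Rela went the other way, at 0.02 in AC pretreated and 0.25 in untreated libraries.

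The difference between the groups also depended on which replicates were set against each other. In replicates 1 and 2 of both groups, AC pretreated libraries had the lower mean for 10 of the 10 genes, against 71.2% of all tested genes. Between the replicate 3 libraries, 4 of the 10 were lower, against 43.7% of all tested genes. In those libraries all placental markers other than Krt8 and Krt18 were at 0. The sign differed between these sets for 6 of the 10, against 65.3% of all tested genes. Rel was at -0.33 and 0.55, Nfkb2 at -0.44 and 0.33, and Rela at -0.18 and 0.21 in the first and second set. Nfkbia (-0.03 and -0.03), Nfkbib (-0.12 and -0.11), Nfkbie (-0.11 and -0.19) and Relb (-0.22 and -0.18) kept their sign. No test was made on the second set, which holds 1 library a group.

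The balance of inhibitor and subunit transcripts was computed within each library, as a description with no test. The size of each ratio depends on the merged exon lengths of its genes. The ratio of Nfkbia to Rela was 0.794, 0.771 and 0.775 in AC replicates 1, 2 and 3, against 0.666, 0.745 and 0.921 in untreated replicates 1, 2 and 3. It averaged 0.780 ± 0.0126 in AC pretreated and 0.778 ± 0.130 in untreated libraries (SD, n = 3 each). The summed cytoplasmic inhibitors over the summed subunits averaged 0.655 ± 0.0406 in AC pretreated and 0.649 ± 0.0935 in untreated libraries. Both ratios were within the untreated range in every AC library. Noncanonical (Nfkb2 and Relb) over canonical subunits averaged 0.445 ± 0.101 in AC pretreated and 0.476 ± 0.0420 in untreated libraries, with AC replicate 1 the highest of the 6 at 0.559 and AC replicate 2 the lowest at 0.369.

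**Figure D4:**
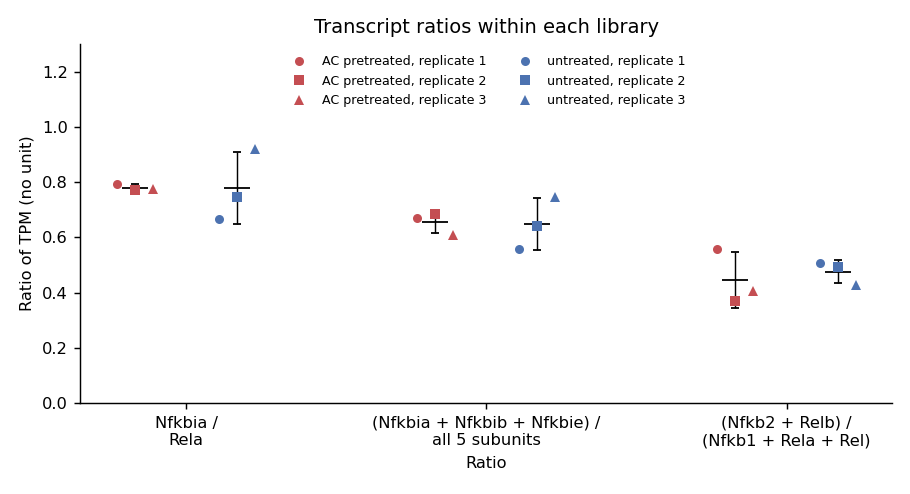
Ratios of TPM within each library (no unit) for AC pretreated (red, left) and untreated (blue) BMDM, with the mean and SD of 3 libraries; the axis starts at 0. For Nfkbia over Rela the AC libraries lie between 0.771 and 0.794, inside the untreated span of 0.666 to 0.921.

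Genes whose profile over the 6 libraries was most like that of a member were found by the root-mean-square distance of centred values among 10794 tested genes. For Relb, the member with the largest SD over the 6 libraries (0.39), they were Rras (distance 0.0525), C2, Gemin7, H2-T10 and Pilra. Rras, which encodes a small GTPase, was at 126, 85.6 and 70.8 TPM in AC replicates 1, 2 and 3, against 117, 126 and 75.6 TPM in untreated replicates 1, 2 and 3, with replicate 3 the lowest library of each group, as for Relb. For Nfkbia they were Sf3a3, Osgep, Fbxo7, C1qtnf6 and Smpd1, at distances of 0.0229 to 0.0350. All of these varied little, so likeness to Nfkbia there says only that the level was steady.

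Around these 10 genes, 74 further genes of the pathway were examined in 4 lists, and 70 were tested. None passed over all genes, in either direction. The list counts below stand beside 70.6% of all tested genes with a lower mean, and a median of -0.07. With median-of-ratios scaling the all-gene median was -0.01. The list medians were then -0.01 (IKK), -0.04 (adaptors), 0.01 (other brakes) and -0.1 (target genes). The IKK complex and its upstream kinases had 9 of 11 genes lower and a median log2 difference of -0.06. Map3k8, which encodes the kinase Tpl2 that p105 holds inactive, was at 19.3, 22.4 and 21.3 TPM in AC replicates 1, 2 and 3, against 25.9, 25.7 and 22.6 TPM in untreated replicates 1, 2 and 3. Every AC library lay below every untreated one, as for 1 of the 11 genes and for 3.48% of all tested genes. The difference was -0.22 ± 0.15. Ikbkb, the catalytic IKK beta gene, differed by -0.11 ± 0.17, Tab2 by -0.15 ± 0.20 and Ikbke, an IKK-related kinase gene, by 0.23 ± 0.20. The list's median by library was lowest in AC replicate 1 (-0.35), where the median of all tested genes was also lowest (-0.18), and its median difference was 0.11 without that library.

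The adaptors and ubiquitin ligases between receptor and IKK had 15 of 17 genes lower and a median of -0.10. Myd88, the adaptor of most Toll-like receptors, was at 214, 183 and 149 TPM in AC replicates 1, 2 and 3, against 216, 229 and 176 TPM in untreated replicates 1, 2 and 3, with overlapping groups and a difference of -0.19 ± 0.17. Irak2, Traf2 and Ticam1, which encode an interleukin-1 receptor-associated kinase, a TRAF adaptor and the adaptor TRIF, differed by -0.20 ± 0.15, -0.20 ± 0.16 and -0.18 ± 0.16.

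The list of other brakes had 10 of 16 genes lower and a median of -0.05, and it held a gene that did not overlap in each direction. Zfp36 encodes tristetraprolin, which destabilises cytokine mRNAs. It was at 214, 228 and 239 TPM in AC replicates 1, 2 and 3, against 207, 210 and 196 TPM in untreated replicates 1, 2 and 3, every AC library above every untreated one, as for 0.936% of all tested genes. The difference was 0.15 ± 0.12. Otulin, which encodes a linear-ubiquitin deubiquitinase, was at 172, 169 and 132 TPM in AC replicates 1, 2 and 3, against 187, 173 and 177 TPM in untreated replicates 1, 2 and 3. Every AC library lay below every untreated one for Otulin, as for 3.48% of all tested genes. Its difference was -0.19 ± 0.15, with replicate 3 the AC library farthest from the rest. Usp18, a deubiquitinase-family gene that limits interferon signalling, and Irak3, an inhibitory kinase-family gene, differed by -0.23 ± 0.13 and -0.16 ± 0.15.

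The NF-kB target genes had a list median of -0.17, with 19 of 26 tested genes lower and 7 higher. Their differences ran from -0.61 for Cxcl10 to 0.41 for Il1b (95% interval -0.65 to 1.48). Il6, Cxcl1, Ptgs2 and Nos2 did not reach the filter, with highest values of 0.241, 0.418, 0.672 and 0.323 TPM. The list's median by library was -0.02, -0.03 and -0.19 in AC replicates 1, 2 and 3, against 0.17, 0.10 and 0.00 in untreated replicates 1, 2 and 3, and its median difference became -0.05 without AC replicate 3. At an unadjusted limma p under 0.05 there was 1 gene of the 26, against 1.3% of all tested genes. That gene was Cxcl10, a chemokine gene driven by interferon as well as NF-kB. It was at 13.5, 15.0 and 10.9 TPM in AC replicates 1, 2 and 3, against 19.1, 20.8 and 21.4 TPM in untreated replicates 1, 2 and 3, a difference of -0.61 ± 0.17. Gadd45b differed by -0.33 ± 0.18, Csf1, the macrophage growth factor gene, by -0.33 ± 0.20, and the chemokine gene Ccl3 by -0.24 ± 0.15. In 3 of the 26 target genes every AC library lay below every untreated one (3.48% of all tested genes): Cxcl10, Csf1 and Sqstm1, the last of which differed by -0.12 ± 0.12.

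**Figure D5:**
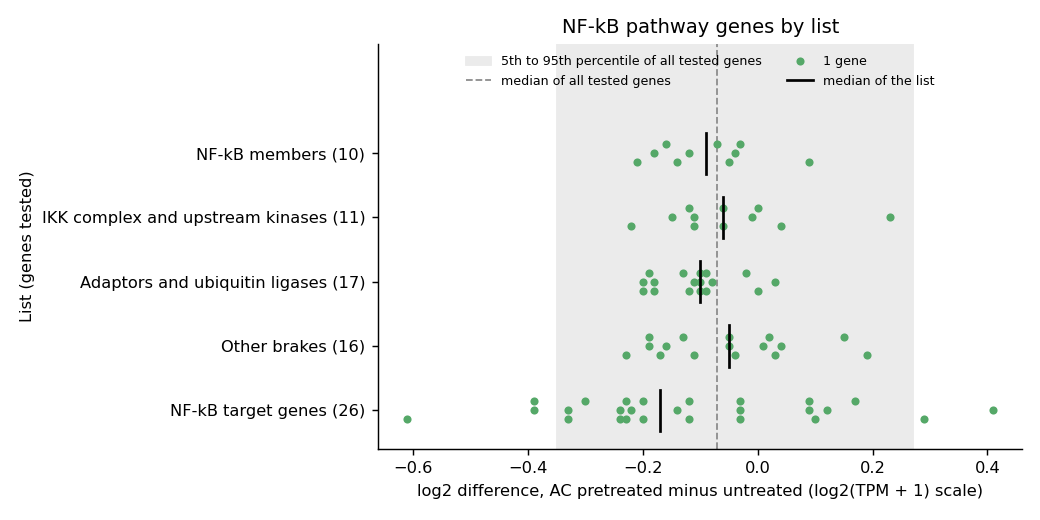
Log2 difference (AC pretreated minus untreated, log2(TPM + 1) scale) of each tested gene in 5 lists, 1 point a gene, with the list median as a black bar and the median (-0.07) and the 5th to 95th percentile of all tested genes in grey. The 10 NF-kB subunit and inhibitor genes all lie inside the grey band, and the target genes spread beyond it on both sides.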

How the data were processed

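Expression in 6 libraries was deposited by the authors as a signal per gene, in 1 table. Tools named in the submitters' processing notes are featureCounts 2.0.3, Subread and STAR 2.7.10a, with the build mm10. For annotation, strand setting and filters the entry is not given in the sources used here. Although the table is named TPM, and the design was written for TPM, its columns sum to 54732 to 92831. Multiplied by GENCODE mouse release 21 merged exon lengths and divided by 8.57, the values gave whole reads in all libraries for 98.4% of 23829 genes (tolerance 0.02 reads), so the deposited signal was not scaled for depth. Depth was 19.3 to 32.6 M reads (M, 1000000).

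Each column was rescaled to sum to 1000000 (TPM). The test was limma 3.58.1 in R 4.3.3 (eBayes with trend, 2-sided) on log2(TPM + 1) of genes that reached 1 TPM in 3 or more libraries. Benjamini-Hochberg adjusted p-values were read against 0.05. This scale understates changes of low genes. The fit was also run on simulated data with planted changes far larger than the members' differences and no length or GC trends. That run says nothing about small differences. All 10 members are named, with up to 4 genes of each list by smallest p, and the 5 nearest profiles of Relb and Nfkbia. Sqstm1 and the per-library marker values fall outside that rule and were chosen after their values were seen. Members and lists were chosen with earlier results of these data known. Python 3.11.15, pandas 2.3.3, numpy 2.4.6 and matplotlib 3.10.9 were also used. Alternatives changed the pseudocount, filter, scaling, variance model or libraries, used voom or a replicate block, or removed length and GC trends (chosen after seeing the data).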

Additional observations from a re-analysis of the deposited data

How the results depend on the processing

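No member passed the threshold under any alternative that gave a test. With array weights, 276 genes passed (2.19%) and 0 members, with the lowest member adjusted p at 0.0683 by limma for Nfkb2. Those weights ran from 0.181 for AC replicate 1 to 7.24 for untreated replicate 2. Without the variance trend 1 gene passed, Gm22279, named after its values were seen. In the other fits 0 passed, from 0 to 0 on leaving out each library.

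Signs near 0 turned. With median-of-ratios scaling the log2 difference was 0.03 for Rel, 0.02 for Rela and 0.04 for Nfkbia. By voom it was 0.01 for Rel, 0.01 for Rela and 0.03 for Nfkbia. With length and GC trends removed it was 0.01 for Rel, 0.01 for Rela, 0.04 for Nfkbia and 0.01 for Nfkbiz. With array weights it was 0.04 for Rel and 0.15 for Nfkbiz, and further from 0 at -0.49 for Nfkb2, -0.44 for Relb, -0.23 for Nfkbib and 0.42 for Tnfaip3, the 4 members with an unadjusted limma p under 0.05 there, as had 3475 genes in all. With the total taken without Gm23935 it was 0.00 for Nfkbia. In replicates 1 and 2 alone Tnfaip3 was at -0.08. Between the replicate 3 libraries Nfkb1 was at 0.07, Nfkb2 at 0.33, Rel at 0.55, Rela at 0.21 and Nfkbiz at 0.21, and Nfkbie moved to -0.19. There the IKK list median was 0.21, that of other brakes 0.06 (-0.16 in replicates 1 and 2), the log2 difference of Nfkbia over Rela -0.25 and of inhibitors over subunits -0.29. The cause was not tested.

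On leaving out 1 library, ranges were -0.28 to 0.27 for Rel, -0.19 to 0.04 for Rela, -0.18 to 0.15 for Nfkbiz, -0.10 to 0.39 for Tnfaip3, -0.44 to 0.00 for Relb, -0.34 to -0.02 for Nfkb2, -0.23 to -0.06 for Nfkb1, -0.20 to -0.04 for Nfkbib, -0.06 to 0.00 for Nfkbia and -0.19 to -0.05 for the target list. With the replicate block 0 genes passed. Each replicate number occurs in both groups, so the block could not alter any member's difference. The unchanged differences therefore say nothing about how firm they are. The labels give same-numbered libraries only a number, and their deviations correlated at -0.06, 0.01 and 0.17, too low in 2 of 3 pairs to take them as pairs, although placental markers such as Tpbpa were at 0 in replicate 3 of both groups and above 0 in the others. With 3 libraries a group, the 95% intervals of Rel, Relb, Nfkb2 and Tnfaip3 reached beyond 1.5-fold, so a change of that size is not excluded.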
